A study of Mus musculus with 60 samples.

Results

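TRBV12-1 and TRBV12-2 are the mouse T cell receptor (TCR) beta variable segments whose protein products are known together as V beta 5. They were chosen by name. A clonotype counted as a member where the deposited TCR beta tables name 1 of these 2 segments, and 2917 of 85775 clonotypes in the CD4 table (3.40%) and 10287 of 82447 in the CD8 table (12.5%) did so. The CD4 members were 1198 TRBV12-1 and 1719 TRBV12-2 clonotypes, and the CD8 members were 5285 and 5002. The tables name 28 V segments for CD4 and 26 for CD8.

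The samples come from a mouse model of graft-versus-host disease, in which T cells of C57BL/6 donors are given to lethally irradiated WT BALB/c recipients together with T cell-depleted bone marrow of WT C57BL/6 mice (hematopoietic cell transplantation, HCT). Donor T cells were WT, STAT3ko (floxed Stat3 deleted by a Cre transgene under the CD4 promoter, so in T cells) or STAT3koPD-1ko (the same cells, also lacking PD-1). Donor-type CD4 and CD8 T cells were sorted by H-2Kb, the donor class I molecule. Each table holds 15 libraries, with 1 spleen library before HCT for each genotype and, for each genotype, 2 liver and 2 gut libraries on day 6, each of which pools 3 recipients. The spleen libraries are titled naive, and the methods do not say whether naive cells were sorted. Nothing ties the libraries to separate donors, so the p-values measure the spread between these pools.

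V beta 5 is a textbook case of a T cell family governed by superantigens. Endogenous mouse mammary tumour viruses encode proteins that are presented by the class II molecule I-E and bind certain V beta domains whatever the rest of the receptor is. BALB/c mice express I-E and delete most of their own V beta 3 (TRBV26), V beta 5, V beta 11 (TRBV16) and V beta 12 (TRBV15) T cells in the thymus. C57BL/6 mice lack I-E and keep V beta 5 cells, which are known to be more frequent among CD8 than CD4 T cells in this strain. The donor cells studied here had therefore matured without I-E and were placed in hosts that express it. Which class II molecules the cells met was not measured.

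Both genes lie on chromosome 6 in the GENCODE annotation of GRCm38, the build named in the labels (mm10). Trbv12-1 (ENSMUSG00000095574) spans chr6:41113550-41114067 on the plus strand and Trbv12-2 (ENSMUSG00000094525) spans chr6:41118851-41119364, also on the plus strand. Each has a short first exon for the leader and a second exon of 293 bases for the V domain. The second exons differed at 32 of 293 bases (89.1% identical). The last 180 bases of both are given below because they show where the members can be told apart, with differing bases in capitals.
TRBV12-1: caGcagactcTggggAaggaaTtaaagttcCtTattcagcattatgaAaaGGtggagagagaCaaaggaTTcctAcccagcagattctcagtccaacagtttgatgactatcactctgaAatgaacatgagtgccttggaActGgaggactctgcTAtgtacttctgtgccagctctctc
TRBV12-2: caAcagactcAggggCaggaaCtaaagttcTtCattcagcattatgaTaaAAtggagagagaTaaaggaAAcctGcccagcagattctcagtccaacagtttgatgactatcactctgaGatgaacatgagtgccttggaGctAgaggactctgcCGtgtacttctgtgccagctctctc
The final 23 bases were identical. They include the 15 bases from the codon of the conserved cysteine, where the complementarity determining region 3 (CDR3) begins, to the end of the segment. The CDR3 itself thus cannot separate TRBV12-1 from TRBV12-2, and that call rests on bases upstream of it.

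The same stretch separates V beta 5 from the other segments tied to superantigens. The germline CDR3 starts below carry capitals where a base equals the V beta 5 base at that position. TRBV31 (V beta 14) is shown because it bears on a check of the names.
V beta 5: TGTGCCAGCTCTCTC
TRBV16: TGTGCaAGCagctTaga
TRBV15: TGTGCCAGCagTtTagc
TRBV26: TGTGCCAGCagTCTgtc
TRBV31: TGTGCCtGgagTCTCa
Of the member clonotypes, 90.5% in CD4 and 95.9% in CD8 began with the first 11 germline bases. They carried from 92.5% to 99.8% of the V beta 5 frequency of a CD4 library and from 96.0% to 99.6% of that of a CD8 library. Conversely, 2181 of the 2195 CD4 clonotypes and 8181 of the 8193 CD8 clonotypes that began with the first 12 germline bases were named TRBV12-1 or TRBV12-2. A few members, 181 in CD4 and 59 in CD8, began with the first 9 bases of TRBV31, a segment that no row is named for. They made up at most 2.28% of the V beta 5 frequency of a CD4 library and at most 0.138% of that of a CD8 library.

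The tables limit the names in another way. Every CDR3 amino acid sequence occurs only once in a table, so receptors with the same CDR3 protein and different V segments stand in 1 row under 1 name. Of the 474 CD4 TRBV12-1 CDR3s that were also listed in the CD8 table, 24.5% were named TRBV12-1 there, 15.4% TRBV12-2 and 60.1% another segment. Of the 680 shared CD4 TRBV12-2 CDR3s, 20.3% kept their name in CD8, 15.7% were named TRBV12-1 and 64.0% another segment. In the other direction, of the 1479 TRBV12-1 and 1423 TRBV12-2 CDR3s that were also listed in CD4, 7.84% and 9.70% kept their name and 84.9% and 85.2% were named another segment. Widely shared CDR3s may be more open to such merging, which was not measured. Results restricted to rarer CDR3s are given where they bear on a comparison.

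The listed frequencies summed to 81.5% to 98.4% of a library, except in the gut libraries of replicate 2, where they summed to 47.8% to 51.5% in CD4 and to 53.2% to 58.0% in CD8. Usage is therefore given as the percentage of the listed frequency. The depth of the libraries is unknown. Some libraries labelled as separate held the same V beta 5 clonotypes. The library before HCT of a genotype and liver replicate 1 of the same genotype shared 42.8% ± 6.82 of their V beta 5 frequency in CD4 (SD, n = 3 genotypes), against 11.8% ± 1.75 for libraries of different genotypes (n = 6 pairs). In CD8 these values were 45.7% ± 8.44 and 8.77% ± 1.58. Liver replicate 2 showed no such excess, with 9.93% ± 3.29 within a genotype and 10.7% ± 2.22 between genotypes in CD4. Gut replicate 1 lay between, with 19.2% ± 4.91 and 10.9% ± 2.21.

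V beta 5 was a minor family in CD4 cells and a major one in CD8 cells. In spleen before HCT, CD4 usage was 2.29% in WT, 1.77% in STAT3ko and 1.81% in STAT3koPD-1ko, and CD8 usage was 11.6%, 12.2% and 12.3%. The lowest CD8 value of all 15 libraries (11.5%) was well above the highest CD4 value (4.22%). The tables were made separately, so the levels are set side by side without a test. By mean level before HCT, TRBV12-2 ranked 17th and TRBV12-1 20th of 28 segments in CD4, and 6th and 8th of 26 in CD8. The other segments tied to superantigens had the opposite skew: TRBV16 was at 17.3% ± 1.05 in CD4 and 5.91% ± 0.507 in CD8, TRBV15 at 5.49% ± 0.918 and 2.21% ± 0.124, and TRBV26 at 4.86% ± 0.707 and 1.02% ± 0.287 (SD, n = 3 libraries).

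**Figure D1:**
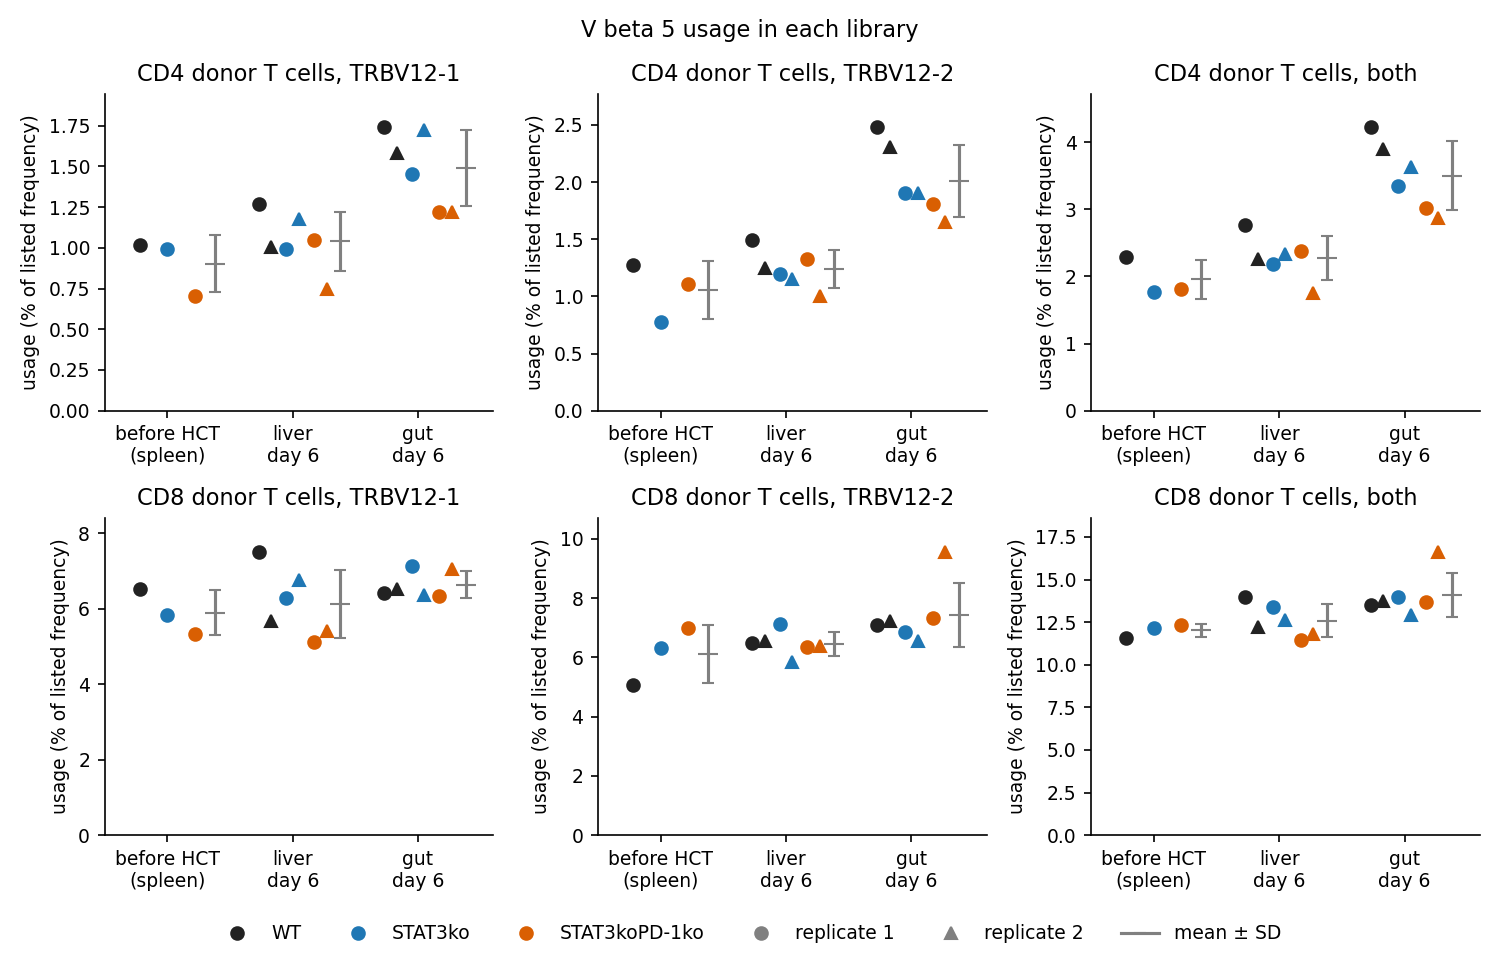
Usage of TRBV12-1, TRBV12-2 and both together, as a percentage of the listed frequency, in each of the 15 CD4 (top) and 15 CD8 (bottom) libraries; colours are genotypes, shapes are replicate numbers, and grey bars are the mean ± SD of a tissue. In CD4 the 6 gut libraries lie between 2.87% and 4.22%, all above the 6 liver libraries at 1.75% to 2.77%, while in CD8 liver and gut overlap and the gut library of STAT3koPD-1ko replicate 2 stands highest at 16.6%.

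In CD4 donor T cells, V beta 5 was used more in gut than in liver on day 6. WT cells had 2.77% and 2.25% in liver and 4.22% and 3.89% in gut. STAT3ko cells had 2.18% and 2.33% in liver and 3.35% and 3.63% in gut. STAT3koPD-1ko cells had 2.38% and 1.75% in liver and 3.02% and 2.87% in gut. All 6 gut libraries were thus above all 6 liver libraries, which 4 of the 20 segments tested (20.0%) showed in this direction, the others being TRBV21, TRBV23 and TRBV26, while 25.0% had every gut library below every liver library. The means were 3.50% ± 0.515 in gut and 2.28% ± 0.329 in liver (SD, n = 6). The difference was 0.60 ± 0.11 (SE) on the log2(percent + 0.1) scale, with an adjusted p of 0.000301 (limma over 20 segments, genotype as a covariate). Of these segments, 85.0% passed the threshold of 0.05, 20.0% as higher and 65.0% as lower in gut, and the median difference over the 20 was -0.47.

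Both members took part. TRBV12-1 had a mean of 1.04% ± 0.18 in liver and 1.49% ± 0.235 in gut, a difference of 0.48 ± 0.11 on the log2 scale (SE, limma adjusted p = 0.00191). Its ranges, 0.745% to 1.27% and 1.22% to 1.74%, overlapped slightly. TRBV12-2 had a mean of 1.24% ± 0.167 in liver and 2.01% ± 0.316 in gut, a difference of 0.65 ± 0.10 (limma adjusted p = 1.0e-04). Its ranges, 1.00% to 1.50% and 1.65% to 2.48%, did not overlap. Both calls depended on the scaling. They were lost with the fractions as deposited (0.021 for TRBV12-1 and 0.18 for TRBV12-2, limma adjusted p = 0.92 and 0.42) and with each clonotype counted once (0.095 and 0.20, limma adjusted p = 0.64 and 0.140). With replicate 1 of liver and gut alone, TRBV12-1 differed by 0.38 (limma adjusted p = 0.0583). Per library, TRBV12-2 usage divided by TRBV12-1 usage averaged 1.20 ± 0.124 in liver and 1.36 ± 0.14 in gut (SD over 6 libraries).

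Gut usage in CD4 cells was also above that before HCT, by 0.80 ± 0.13 on the log2 scale (SE, limma adjusted p = 4.0e-05), a comparison in which 80.0% of the 20 segments passed the threshold, 20.0% as higher and 60.0% as lower. With TRBV26 and TRBV23 left out of the total it was 1.34 ± 0.12 (limma adjusted p = 2.1e-07), and the calls over all segments went from 4 higher and 12 lower to 5 higher and 3 lower. The V beta 5 call was lost with the fractions as deposited (0.28, limma adjusted p = 0.26) and with each clonotype counted once (0.27, limma adjusted p = 0.0707). Liver usage was not shown to differ from that before HCT: the difference was 0.20 with a 95% interval from -0.06 to 0.47 (limma adjusted p = 0.45), and 10% of segments passed. With liver replicate 2 alone, which shares few clonotypes with the spleen libraries, it was 0.10 ± 0.14 (SE, limma adjusted p = 0.67). These comparisons use the same 3 spleen libraries, and the comparisons of gut use the same gut libraries.

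The value of the CD4 gut difference depended on what the frequency was divided by. TRBV26 and TRBV23 ranked 1st and 3rd in the gut, at 25.4% ± 1.76 and 10.6% ± 2.39 (liver 9.09% ± 1.83 and 3.70% ± 0.75). Both rose in gut, so leaving them out of the total raises the difference of every other segment. With both left out, the V beta 5 difference was 1.04 ± 0.10 (limma adjusted p = 5.2e-06). With the fractions as deposited, not divided by the listed total, it was 0.11 ± 0.21 (limma adjusted p = 0.60), and the call was lost; the CD8 differences of gut from liver and from before HCT turned negative (-0.28 and -0.26, both uncalled). In that scaling the gut libraries of replicate 2 enter with 47.8% to 51.5% listed. The samples were handled in batches, per the methods, and no source says which replicate belongs to which batch. Within replicate 1 of liver and gut the difference was 0.51 ± 0.18 (limma adjusted p = 0.014) and within replicate 2 it was 0.69 ± 0.21 (limma adjusted p = 0.00424). Without the gut libraries of replicate 2, and with usage as in the rest of the text, the difference was 0.61 ± 0.13 (limma adjusted p = 0.000698). With only the CDR3s found in at most 5 libraries of the join it was 0.77 ± 0.14 (limma adjusted p = 0.000507), and with only the members that began with the 11 germline bases it was 0.62 ± 0.11 (limma adjusted p = 0.000259).

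**Figure D2:**
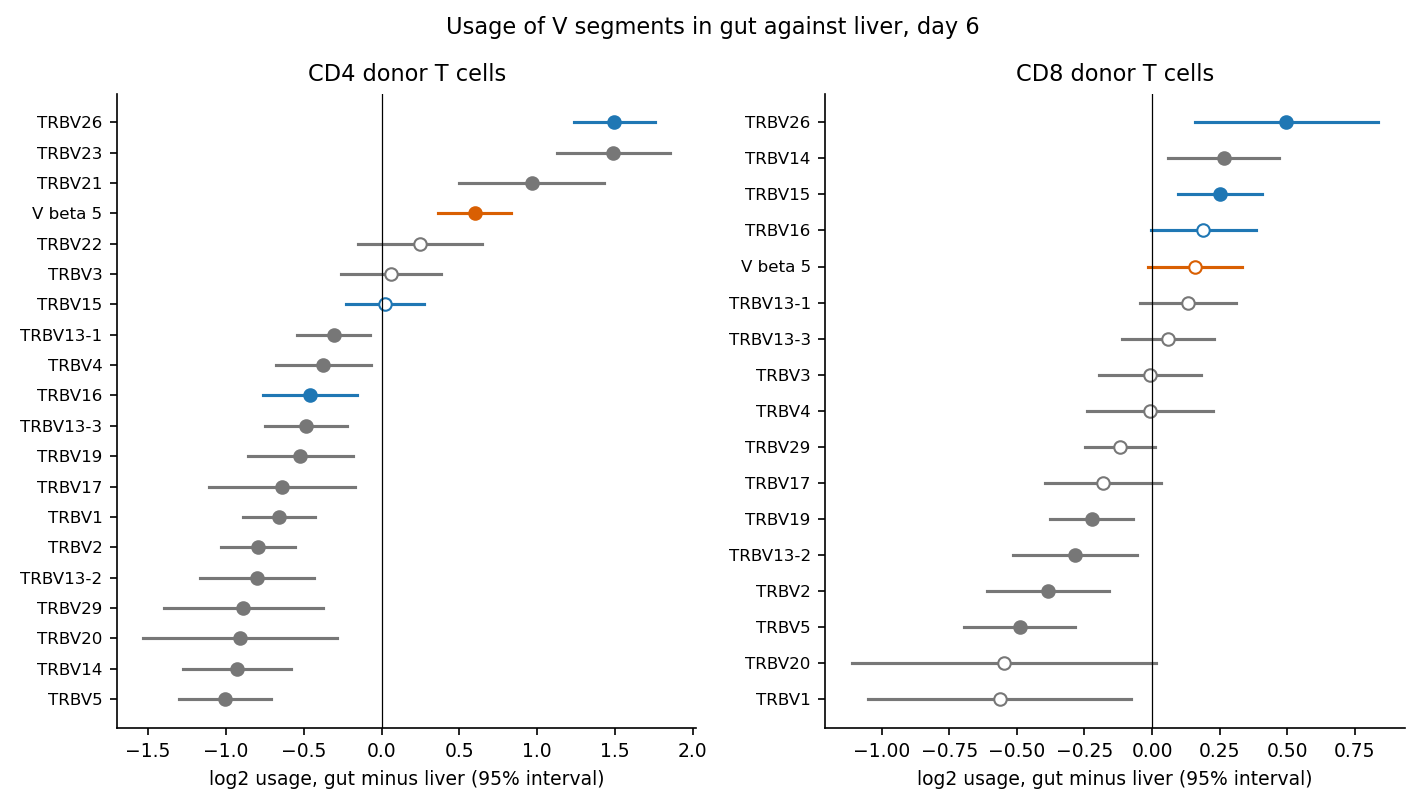
Difference of log2(percent + 0.1) usage between gut and liver for each V segment tested, with 95% intervals, in CD4 (left, 20 segments) and CD8 (right, 17 segments); filled points passed an adjusted p of 0.05, V beta 5 is orange, and TRBV26, TRBV16 and TRBV15 are blue. V beta 5 ranks 4th in CD4 at 0.60 and 5th in CD8 at 0.16.

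The segments tied to superantigens did not move as 1 group in CD4 cells. TRBV26 rose by 1.49 ± 0.12 on the log2 scale in gut against liver (SE, limma adjusted p = 2.9e-07). TRBV16 fell by 0.46 ± 0.14 (adjusted p = 0.00904) and TRBV15 differed by 0.02, with a 95% interval from -0.23 to 0.28 (adjusted p = 0.85, both limma). Of the 10 segments listed for comparison, TRBV31 had no row and TRBV13-1, TRBV13-2, TRBV13-3, TRBV4, TRBV2, TRBV1, TRBV14, TRBV19 and TRBV29 all fell, by between 0.31 for TRBV13-1 and 0.93 for TRBV14. These are shares of a total in which TRBV26 and TRBV23 grew. With both left out of the total, TRBV16 differed by -0.01 ± 0.12 (limma adjusted p = 0.91) and TRBV15 by 0.47 ± 0.11 (limma adjusted p = 0.0062), and of the 9 comparison segments only TRBV14 (-0.49, adjusted p = 0.0282) and TRBV2 (-0.37, adjusted p = 0.0152, both limma) were still called lower. In CD8 cells TRBV26 rose by 0.50 ± 0.16 (limma adjusted p = 0.028) and TRBV15 by 0.25 ± 0.07 (limma adjusted p = 0.0256), while TRBV16 differed by 0.19 ± 0.09 (limma adjusted p = 0.0946).

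In CD8 donor T cells, V beta 5 usage was high in every tissue and was not shown to differ between liver and gut. WT cells had 14.0% and 12.2% in liver and 13.5% and 13.7% in gut. STAT3ko cells had 13.4% and 12.6% in liver and 14.0% and 12.9% in gut. STAT3koPD-1ko cells had 11.5% and 11.8% in liver and 13.7% and 16.6% in gut. Liver and gut overlapped, as they did for all 17 segments tested (0.0% apart in either direction). The difference between gut (14.1% ± 1.30) and liver (12.6% ± 0.964) was 0.16 on the log2 scale, with a 95% interval from -0.02 to 0.33 (limma adjusted p = 0.101), where 41.2% of segments passed the threshold, 17.6% as higher and 23.5% as lower. Without the gut library of STAT3koPD-1ko replicate 2 it was 0.098 (limma adjusted p = 0.19). The upper bound of the interval over all 12 libraries, 0.33, is below the CD4 estimate of 0.60; the difference between the cell types was not tested. The result depended on scaling: with each library centred on its median segment, whose level was 0.35 lower in gut than in liver on the log2 scale, the difference was 0.50 ± 0.13 (limma adjusted p = 0.000693). That centring turned the calls over all segments from 3 higher and 4 lower to 9 higher and 0 lower in gut.

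Against spleen before HCT, CD8 usage differed by 0.22 ± 0.09 in gut (SE, limma adjusted p = 0.0537, with 47.1% of segments called, 11.8% as higher and 35.3% as lower) and by 0.06 ± 0.09 in liver (adjusted p = 0.77, with 0.0% called, and 2 segments at an unadjusted p below 0.05). TRBV12-2 alone passed in gut against before HCT, by 0.28 ± 0.11 (limma adjusted p = 0.0496), and lost the call in 12 of the 15 fits that left out 1 library, with a lowest value of 0.16 without the WT library before HCT (limma adjusted p = 0.26). Of the 11 other settings run, 5 also lost the call, and the fractions as deposited turned it to -0.20 (limma adjusted p = 0.47). TRBV12-1 differed by 0.17 ± 0.10 (limma adjusted p = 0.164). For V beta 5 as a whole in gut, 6 of these 11 settings passed the threshold, such as median centring (0.52, limma adjusted p = 0.00731), and 4 did not. The fractions as deposited turned its value to -0.26 (limma adjusted p = 0.32). Between liver and gut, TRBV12-1 was at 6.12% ± 0.901 and 6.64% ± 0.359, and TRBV12-2 at 6.46% ± 0.407 and 7.44% ± 1.08 (SD, n = 6).

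The donor genotype was not shown to change V beta 5 usage. In CD4 cells on day 6, STAT3ko against WT gave -0.18 ± 0.13 on the log2 scale (SE, limma adjusted p = 0.68), STAT3koPD-1ko against STAT3ko -0.19 ± 0.13 (adjusted p = 0.62) and STAT3koPD-1ko against WT -0.36 ± 0.13 (adjusted p = 0.117, unadjusted p = 0.0176). In gut the 2 libraries of each genotype kept the order WT, STAT3ko, STAT3koPD-1ko without overlap, which 1 of the 20 segments showed (5.0%, and 0.0% in the opposite order). With gut libraries only, STAT3koPD-1ko against WT gave -0.45 ± 0.20 (limma adjusted p = 0.54). In liver the genotypes overlapped. None of the 20 segments passed in any of these 3 comparisons by limma (0.0%), and 0, 3 and 5 had an unadjusted p below 0.05. In CD8 cells the differences in the same order were -0.01, 0.0026 and -0.01, with standard errors of 0.10 and adjusted p-values of 0.94, 0.98 and 0.91 (limma, 0.0%, 0.0% and 11.8% of 17 segments called). The gut difference did not depend on genotype beyond the spread either: the interaction of STAT3koPD-1ko with tissue was -0.17 ± 0.29 in CD4 (limma adjusted p = 0.94 over both interaction terms) and 0.31 ± 0.18 in CD8 (limma adjusted p = 0.96), and no segment passed in either table (0.0%, and 0 in each table at an unadjusted p below 0.05).

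The CD4 gut rise was in frequency, and it was not shown for the number of clonotypes. Counting each listed clonotype once, V beta 5 made up 3.51% ± 0.517 of clonotypes in liver and 3.93% ± 0.555 in gut (SD, n = 6), a log2 difference of 0.16 ± 0.11 (SE, limma adjusted p = 0.28). Usage divided by this share gives the size of a V beta 5 clonotype relative to the average. It was 0.605 ± 0.032 before HCT (n = 3), 0.652 ± 0.0778 in liver and 0.899 ± 0.15 in gut (n = 6), so CD4 V beta 5 clonotypes were smaller than average in spleen and liver. The gut replicates differed, with 0.894 to 1.06 in replicate 1 and 0.691, 0.751 and 0.989 in replicate 2, and the lowest of these lay within the liver range, which reached from 0.511 to 0.7102. In CD8 it was 0.907 ± 0.0845, 0.933 ± 0.0471 and 0.975 ± 0.115.

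The most frequent clonotypes were also compared. Among CD4 clonotypes above 0.01% of a library, V beta 5 made up 1.87% ± 0.259 before HCT, 1.87% ± 0.299 in liver and 3.72% ± 0.327 in gut (SD). Liver libraries ranged from 1.35% to 2.22% and gut libraries from 3.41% to 4.18%, without overlap. On this measure 15% of the 20 segments tested lay higher in every gut library than in every liver library (V beta 5, TRBV23 and TRBV26), and 30.0% lay lower. Between 27 and 43 V beta 5 clonotypes passed this level in a liver library and between 37 and 62 in a gut library, with means of 37.0 and 48.2. The clonotypes of all segments above this level numbered 1985 ± 143 in liver and 1301 ± 261 in gut (SD, n = 6), so the difference in share also reflects a smaller total. Clonotypes with a fraction below 1e-05 before HCT (here the mean of the 3 spleen libraries) and above 0.0001 on day 6 were counted as well. The depth of the spleen libraries is unknown, so such clonotypes need not have expanded in the host. They included 7 to 29 V beta 5 clonotypes in a CD4 liver library and 26 to 38 in a CD4 gut library. Liver replicate 1, which shares many clonotypes with the spleen libraries that set this rule, had 7 to 16 V beta 5 clonotypes of 251 to 534, and liver replicate 2 had 22 to 29 of 1315 to 1707. V beta 5 made up 2.06% ± 0.858 of them in liver (2.51% ± 1.09 in replicate 1 and 1.61% ± 0.205 in replicate 2) and 3.78% ± 0.731 in gut, and the highest liver value, 3.43%, was above the lowest gut value, 3.11%. In CD8 the share was 11.5% ± 2.18 in liver and 13.0% ± 2.27 in gut. These shares are given without a test.

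**Figure D3:**
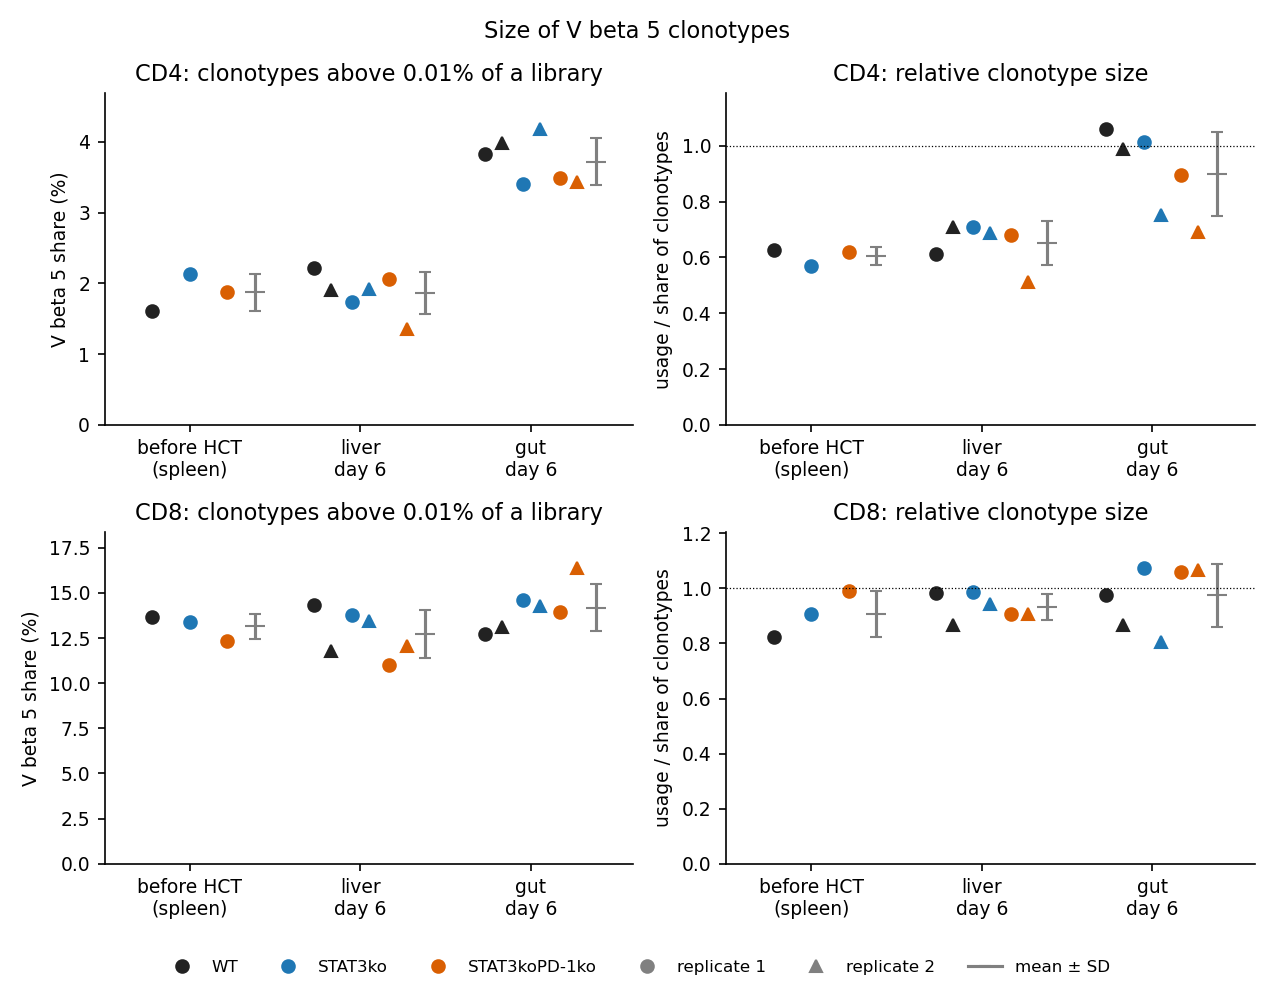
Left, V beta 5 share of the clonotypes above 0.01% of a library; right, V beta 5 usage divided by its share of listed clonotypes, where 1 (dotted) is the average clonotype; CD4 on top and CD8 below, with colours, shapes and grey bars (mean ± SD) for genotype, replicate number and tissue. In CD4 the 6 gut libraries lie at 3.41% to 4.18% on the left, above the liver libraries at 1.35% to 2.22%, as in 15% of the 20 segments tested.

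The effective number of V beta 5 clonotypes, the number of equally frequent clonotypes with the same Shannon entropy, was 247 ± 104 in CD4 liver and 280 ± 199 in CD4 gut (SD, n = 6). Gut replicates 1 and 2 were far apart, at 370 to 566 and at 62.2 to 196, as was the listed share of these libraries. The mean of the log2 values ran opposite to these means, and the log2 difference of gut from liver was -0.12 (exact two-sided permutation test within genotype, p = 0.843, adjusted p = 0.843 over 4 tests). In CD8 the effective numbers were 917 ± 222 and 1159 ± 471, a log2 difference of 0.26 (exact permutation p = 0.435, adjusted p = 0.58). In CD4 libraries the largest listed V beta 5 clonotype took 1.52% to 8.81% of the listed V beta 5 frequency. In CD8 libraries it took 0.792% to 3.70%. The listed V beta 5 frequency of a library was thus not carried by 1 clonotype. A large clonotype private to 1 library would be missing from these values, so whether such clonotypes dominated any library cannot be told.

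The CDR3 of V beta 5 clonotypes was 41.3 ± 0.308 nucleotides long in CD4 liver and 41.8 ± 0.422 in CD4 gut, as a mean weighted by frequency (SD, n = 6). The difference of 0.465 nucleotides had an exact two-sided permutation p of 0.0648 (adjusted p = 0.259). In CD8 it was 41.3 ± 0.151 in liver and 41.0 ± 0.452 in gut, a difference of -0.259 nucleotides (exact permutation p = 0.269, adjusted p = 0.537). The smallest p that the 216 arrangements allow is 0.00926. The 3 CD8 gut libraries of replicate 2 had the shortest V beta 5 CDR3s, at 40.5 to 40.7 nucleotides. The other segments were shortest in the same libraries, at 39.5 to 40.0 nucleotides, and the part of the low listed share in this was not tested.

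TRBV12-1 and TRBV12-2 differed in the J segments they were joined to. In CD8, TRBJ2-5 took 16.5% ± 3.01 of TRBV12-2 frequency and 7.69% ± 1.30 of TRBV12-1 frequency (SD, n = 15), higher for TRBV12-2 in 15 of 15 libraries. In CD4 the same J took 24.0% ± 6.54 and 10.3% ± 7.97, higher for TRBV12-2 in 14 of 15 libraries. Counting clonotypes, TRBJ2-5 was in 399 of the 1719 CD4 TRBV12-2 clonotypes (23.2%) and in 126 of the 1198 TRBV12-1 clonotypes (10.5%). TRBJ1-5 in CD8 leaned the same way, at 1.94% ± 1.07 for TRBV12-2 and 0.268% ± 0.175 for TRBV12-1, and again in all 15 libraries. TRBJ2-1 leaned the other way in CD8, at 23.7% ± 2.62 for TRBV12-1 and 14.8% ± 3.12 for TRBV12-2 in 15 of 15 libraries. In CD4, TRBJ2-4 took 21.8% ± 4.99 of TRBV12-1 and 7.61% ± 2.70 of TRBV12-2, higher for TRBV12-1 in 14 of 15 libraries. Libraries of a table share clonotypes, so these counts describe the tables and carry no test.

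As a family, V beta 5 was joined most to TRBJ2-5 (17.9% ± 4.88), TRBJ2-3 (16.8% ± 4.44) and TRBJ2-7 (14.96% ± 4.17) in CD4, and to TRBJ2-7 (26.0% ± 2.79), TRBJ2-1 (19.2% ± 2.07) and TRBJ2-5 (12.2% ± 1.73) in CD8. TRBJ1-1 was scarce: it took 2.90% ± 0.981 of V beta 5 and 12.1% ± 1.57 of the other segments in CD4, and 6.52% ± 1.42 and 14.2% ± 0.996 in CD8, lower for V beta 5 in all 15 libraries of both tables.

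**Figure D4:**
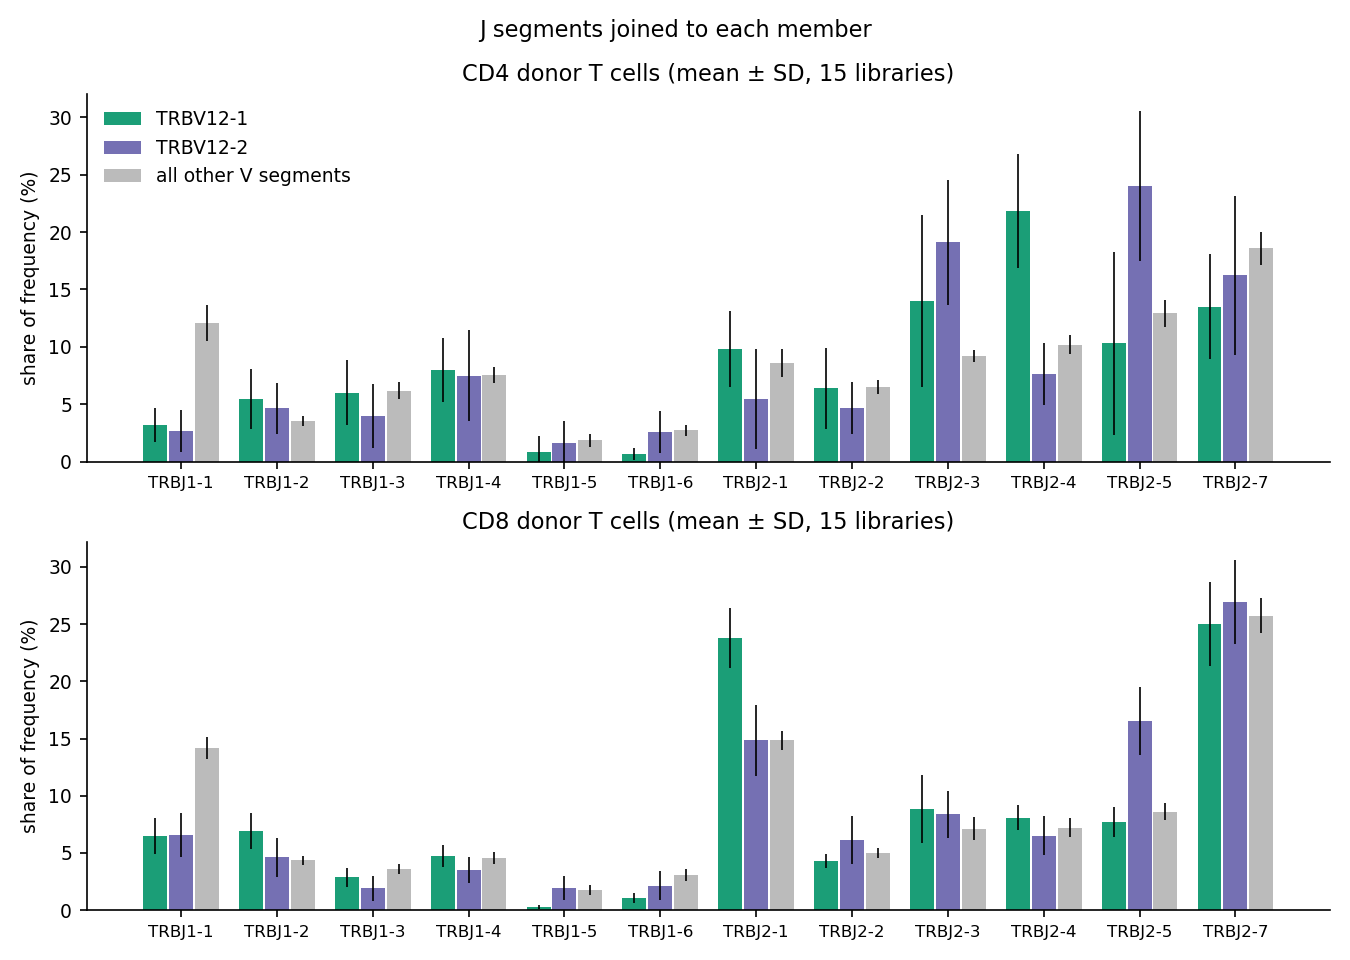
Share of frequency (%) that each J segment takes among TRBV12-1, TRBV12-2 and all other V segments (the latter over CDR3s that run from C to F or W), as the mean ± SD over 15 libraries, for CD4 (top) and CD8 (bottom). TRBJ2-5 is higher with TRBV12-2 than with TRBV12-1 in both tables (24.0% and 10.3% in CD4), and TRBJ1-1 is lower with both members than with the other segments.

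The clonotypes with the highest mean fraction are shown as CDR3 DNA, because they let the germline part of single receptors be seen. Capitals mark the leading bases that equal the germline end of TRBV12-1 and TRBV12-2. In CD4 they were as follows.
CD4 TRBV12-1 with TRBJ2-4: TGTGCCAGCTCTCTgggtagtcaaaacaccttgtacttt
CD4 TRBV12-1 with TRBJ2-5: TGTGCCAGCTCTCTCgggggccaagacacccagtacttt
CD4 TRBV12-2 with TRBJ2-5: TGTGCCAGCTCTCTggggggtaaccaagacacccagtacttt
CD4 TRBV12-2 with TRBJ2-3: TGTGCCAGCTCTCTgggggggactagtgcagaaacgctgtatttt
The first was listed in 14 of 15 libraries, at 0.0431% ± 0.0291 of a library before HCT, 0.0382% ± 0.024 in liver and 0.0276% ± 0.0245 in gut (SD). It kept 14 germline bases and was named TRBV12-1 in the CD8 table as well. The second was listed in all 15 and reached 0.0976% in the gut library of STAT3koPD-1ko replicate 2, against 0.0018% to 0.0113% in the other 5 gut libraries. The TRBV12-2 clonotypes with TRBJ2-5 and TRBJ2-3 were highest in the WT library before HCT, at 0.092% and 0.107%, and lower on day 6, with gut means of 0.0083% ± 0.0109 and 0.00782% ± 0.0116. For each of the 4, the differences between the tissue means were smaller than the largest SD of a tissue. In the CD8 table the CDR3 of the TRBV12-1 clonotype with TRBJ2-5 was named TRBV12-2. That of the TRBV12-2 clonotype with TRBJ2-5 was named TRBV29, and that with TRBJ2-3 kept its name.

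In CD8 the corresponding clonotypes were these.
CD8 TRBV12-1 with TRBJ2-1, 15 germline bases: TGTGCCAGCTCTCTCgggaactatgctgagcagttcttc
CD8 TRBV12-1 with TRBJ2-1, 14 germline bases: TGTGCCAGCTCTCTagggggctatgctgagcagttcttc
CD8 TRBV12-2 with TRBJ2-7, 11 germline bases: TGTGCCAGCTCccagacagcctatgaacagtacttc
CD8 TRBV12-2 with TRBJ2-7, 14 germline bases: TGTGCCAGCTCTCTagttgaacagtacttc
Of these, 3 were listed in all 15 libraries. The first ranged from 0.00709% to 0.170% in liver and from 0.00776% to 0.0776% in gut. The third was listed in 4 libraries only and owed its rank to the STAT3ko library before HCT, where it stood at 0.431%. The last, of 30 nucleotides the shortest shown, was at 0.0283% ± 0.0101 in liver and 0.0294% ± 0.0208 in gut (SD, n = 6). In the CD4 table the first was named TRBV12-2, the second TRBV15 and the last TRBV16, and the third was not listed.

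Among clonotypes with a mean fraction below 1e-05 before HCT, those with the highest day 6 mean were chosen for that level, which is therefore only described.
CD4 TRBV12-1 with TRBJ2-7: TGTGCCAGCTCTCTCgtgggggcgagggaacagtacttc
CD4 TRBV12-2 with TRBJ2-3: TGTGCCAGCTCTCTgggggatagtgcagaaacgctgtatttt
CD8 TRBV12-1 with TRBJ2-1: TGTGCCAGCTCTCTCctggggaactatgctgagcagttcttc
CD8 TRBV12-2 with TRBJ2-7: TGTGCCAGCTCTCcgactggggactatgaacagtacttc
The first stood at 0.155% in the gut library of WT replicate 1 and at 0.0102% in the liver library of WT replicate 2, and at no more than 0.00339% in the other day 6 libraries. The second stood at 0.134% in the liver library of WT replicate 2 and at 0.0185% in the gut library of WT replicate 1. The third was listed in all 12 day 6 libraries, at 0.00895% to 0.0499% in liver and 0.00247% to 0.0407% in gut, against a mean of 0.000892% before HCT. The last stood at 0.224% in the gut library of STAT3koPD-1ko replicate 2 and at 0.0366% in the liver library of STAT3ko replicate 1, and it was listed in 2 of the 6 gut libraries. With the exception of the third, each thus owed its mean to 1 library. In the table of the other cell type the second was named TRBV15 and the third TRBV4, and the first and last were not listed.

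Across the 15 CD4 libraries, the segments whose log2 usage followed that of V beta 5 most closely were TRBV26 (Pearson r = 0.86), TRBV23 (0.82) and TRBV21 (0.70). These 3 were the other segments called higher in gut than in liver. In CD8 they were TRBV15 (0.56), TRBV14 (0.53) and TRBV26 (0.53). TRBV12-1 and TRBV12-2 followed each other in CD4 (r = 0.84) and hardly in CD8 (r = 0.19). Tissue was not removed from these values, so in CD4 they carry the same gut and liver difference and are no separate observation. All points of a table share its libraries and their listed totals, and these values are given without a p.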

How the data were processed

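RNA of sorted donor T cells was made into TCR libraries with the SMARTer mouse TCR a/b kit and sequenced as paired MiSeq reads. The authors called clonotypes with MiXCR and joined libraries with VDJtools, per the methods of the study. The deposited values are fractions of a library's clonotype reads, formed before the join. The join lists clonotypes found in at least 2 of 18 libraries, and the tables hold 15 library columns each. No counts are given, so depth is unknown. The 2 TCR alpha tables were not used.

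V segment usage was the sum of fractions over the rows named for a segment, divided by the listed total. Testing covered segments averaging 0.5% usage or more, with limma 3.58.1 (R 4.3.3) on log2(percent + 0.1), a scale that understates changes of low segments, with TRBV12-1 and TRBV12-2 summed as 1 segment and also fitted apart. Day 6 fits used 12 libraries with tissue and genotype as terms, and fits against before HCT used all 15. P-values were adjusted by Benjamini-Hochberg over the segments of a table. The code was tested on simulated data. Effective numbers (log2) and CDR3 lengths were compared by exact two-sided permutation. Named were both members, fixed lists of other segments, the 3 segments most correlated with V beta 5, the 3 leading J segments, and clonotypes by mean fraction (2 for each member, and 2 per table below 1e-05 before HCT). J segments whose share differed between the members, and TRBV23, TRBV21 and TRBJ1-1, were named after their values were seen. Members and lists were chosen with earlier results of these data known. The methods name batches that the labels do not tie to replicate numbers. Same-numbered gut libraries deviated together, but not every same-numbered pair did, so the numbers were not used as pairs. The fits treat the gut libraries as independent, so the standard errors and p-values of gut comparisons may be too small.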

Additional observations from a re-analysis of the deposited data

Results flagged for a closer look

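In CD8 donor T cells, V beta 5 usage in the gut library of STAT3koPD-1ko replicate 2 was 16.6%, far from the next highest of the 6 gut libraries (14.0%). TRBV12-2 usage in the same library was 9.56%, against 7.33% in the next. In each case the gap, as a share of the range of the 6 libraries, was above the 95% limit of Dixon's test. Of 20 such sets of 6 libraries these 2 passed that limit, and chance alone takes about 1 in 20 past it. In this library 53.2% of the frequency was listed.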

How the results depend on the processing

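Values are log2 differences of V beta 5 usage unless stated. Without 1 library at a time, the CD4 gut difference from liver lay between 0.55 and 0.66, with limma adjusted p-values up to 0.00154, and that from before HCT between 0.74 and 0.85; both kept direction and call. Both lost the call in 2 settings: fractions as deposited gave 0.11 and 0.28 (adjusted p = 0.60 and 0.26), and each clonotype counted once gave 0.16 and 0.27 (adjusted p = 0.28 and 0.0707). The cause was not tested. In all other settings run, both kept direction and call (0.90 and 1.17 with CDR3s from C to F or W).

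In CD8 cells the difference of gut from before HCT stood just outside the threshold and passed it with no filter (0.22), clonotypes of at least 3 libraries (0.28), CDR3s from C to F or W (0.23), TRBV26 and TRBV23 left out (0.23), median centring (0.52) and the germline CDR3 start only (0.24). Leaving out 1 library gave 0.17 to 0.25, and the call was gained without WT liver replicate 1 and without STAT3ko gut replicate 2. Median centring also called gut against liver (0.50), which was 0.098 to 0.20 without 1 library. With fractions as deposited these 2 CD8 differences were -0.26 and -0.28, and gut against liver and against before HCT were -0.31 and -0.30 for TRBV12-1 and -0.25 and -0.20 for TRBV12-2 (none called). The cause was not tested.

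The CD4 differences of STAT3ko and of STAT3koPD-1ko from WT stayed negative in every setting run (-0.24 to -0.087 and -0.52 to -0.10), uncalled. The CD8 genotype differences were near 0 and changed sign, uncalled. There, STAT3ko against WT was 0.019 as deposited and 0.012 with clonotypes of at least 3 libraries. STAT3koPD-1ko against STAT3ko was -0.090 as deposited, -0.0012 with clonotypes of at least 3 libraries, -0.049 with each clonotype counted once and -0.16 in liver libraries only. STAT3koPD-1ko against WT was 0.011 with clonotypes of at least 3 libraries, 0.026 with those of at most 5 and 0.15 in gut libraries only. Leaving out 1 library gave -0.051 to 0.041, -0.090 to 0.050 and -0.10 to 0.044 for these 3 comparisons. In CD4, counting each clonotype once gave 0.0034 for STAT3koPD-1ko against STAT3ko and 0.050 for the interaction, which ranged from -0.38 to 0.044 without 1 library. The CD8 interaction was 0.17 (without STAT3koPD-1ko gut replicate 2) to 0.45 without 1 library and 0.077 with each clonotype counted once, uncalled.

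The CD4 log2 effective number differed by 0.021 with clonotypes of at least 3 libraries and by -0.55 to 0.31 without 1 library, positive without any 1 of the gut libraries of replicate 2 and without STAT3ko liver replicate 2. In CD8 it differed by 0.039 to 0.48 without 1 library (lowest without STAT3koPD-1ko gut replicate 1). The CD4 CDR3 length differed by -0.153 nucleotides with each clonotype counted once.

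With the replicate block the CD4 gut difference from liver was 0.60 ± 0.11 (SE, limma adjusted p = 0.00036) and the CD8 one 0.16 (adjusted p = 0.103), and no V beta 5 call changed. The numbers are not taken as pairs: deviations from group means correlated above 0.1 in 6 of 15 CD4 pairs (median r = 0.06) and 9 of 15 CD8 pairs (median r = 0.13). The 3 pairs within gut did so in both tables (0.36 to 0.50 in CD4 and 0.51 to 0.87 in CD8), whereas 2 of 9 CD4 and 5 of 9 CD8 pairs of a liver with a gut group did.

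Over all segments, for CD4 gut against liver, 4 higher and 13 lower became 5 and 3 with TRBV26 and TRBV23 left out, 3 and 5 for CDR3s from C to F or W, and 4 and 6 with median centring (library medians -0.23 in gut). For CD8 gut against liver, 3 and 4 became 0 and 8 as deposited, and against before HCT 2 and 6 became 8 and 1 with centring. The settings with clonotypes of at most 5 libraries, the germline start or 1 tissue only were added after seeing the data, as were the fits of replicate 1 and of replicate 2 alone. Counting error is unmeasured, as depth is unknown.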
